A study of Mus musculus with 7 samples.

Results

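Among cells sorted from the mesenteric lymph nodes (mLNs) of mice, 73 cells carried RNA that belongs to the exocrine pancreas. These enzyme-rich cells were chosen by measured values: a cell was a member when more than 10% of its unique molecular identifiers (UMIs, each standing for 1 captured RNA molecule) came from 11 pancreatic enzyme genes in sum, namely Clps, Ctrb1, Prss2, Cpa1, Cela1, Cela2a, Cela3b, Pnlip, Pnliprp1, Try4 and Try5. Of the 17692 cells in the series, 51 of the 4616 cells at D0 and 22 of the 2202 cells at D24 were members. Their high total over the 11 genes is therefore the rule and not a result. How that total divides among the 11 genes, and the level of every other gene, was not part of the rule and is described here.

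The study followed stromal cells (SCs) of the gut-draining mLN through postnatal life. The labels give BALB/c as the strain and specific pathogen free housing for all samples and name no transgene, deletion or treatment. The study's methods name its specific pathogen free BALB/c line CD90.1 (BALB/c). The groups used here are D0 (the day of birth or the day after it) and D24 (around weaning), with 1 library each, while D10, D56 and D300 serve only to show where members were absent. mLNs were resected, digested with collagenase P, dispase and DNase I, depleted of CD45+ leukocytes and sorted as CD45-CD24- cells before droplet 3′ sequencing. The number of animals pooled per library is not given in the sources used here. With 1 library per age there is no replicate, so age cannot be told apart from library, no test was made and every interval below covers counting error only.

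Acinar cells form the bulk of the exocrine pancreas, a gland that lies beside the mesentery. They make digestive enzymes, most of them as inactive zymogens, store them in granules and release them into the gut. Trypsinogens, chymotrypsinogens, elastases and carboxypeptidases cut proteins, pancreatic lipase with its cofactor colipase digests triglycerides from solid food, and lipase-related protein 2 and the bile salt-dependent lipase Cel are known for the digestion of milk fat in the suckling animal. The switch from milk to solid food falls around weaning.

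The 11 genes and their closest relatives lie at several places in the genome (GENCODE vM21, GRCm38). Ctrb1, the chymotrypsinogen B gene, spans chr8:111686519-111691010 on the minus strand. The colipase gene Clps spans chr17:28558149-28560766 on the minus strand. Pnlip and its relative Pnliprp1 are neighbours on chromosome 19, at chr19:58652498-58681788 and chr19:58728887-58744169 on the plus strand, and Cela1 lies at chr15:100674421-100687921 on the minus strand. The trypsinogens form a cluster on chromosome 6, in which Try4 spans chr6:41302269-41305532, Prss1 chr6:41458932-41463786 and Prss2 chr6:41521787-41525079, all on the plus strand.

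Promoters of 6 genes are printed because these genes carried most of the difference between the ages: Pnlip, Cela1 and Try4 were higher at D24, Pnliprp1 and Prss1 were higher at D0, and Ctrb1 led at both. Each sequence runs 5′ to 3′ from 250 bases before the RefSeq start to 50 bases from it (build GRCm38.p6, the C57BL/6J reference, whereas the mice were BALB/c). For Pnlip this window lies inside the GENCODE span given above, because GENCODE and RefSeq place the start of the gene differently. The positions are chr19:58670115-58670414 on the plus strand for Pnlip, chr15:100687871-100688170 on the minus strand for Cela1, chr6:41302022-41302321 on the plus strand for Try4, chr19:58728637-58728936 on the plus strand for Pnliprp1, chr6:41458680-41458979 on the plus strand for Prss1 and chr8:111690961-111691260 on the minus strand for Ctrb1. Capitals mark the E-box letters CANNTG and the letters TGGGAA or their reverse complement TTCCCA, which are the parts of the element that the acinar complex PTF1 is known to bind.
Pnlip: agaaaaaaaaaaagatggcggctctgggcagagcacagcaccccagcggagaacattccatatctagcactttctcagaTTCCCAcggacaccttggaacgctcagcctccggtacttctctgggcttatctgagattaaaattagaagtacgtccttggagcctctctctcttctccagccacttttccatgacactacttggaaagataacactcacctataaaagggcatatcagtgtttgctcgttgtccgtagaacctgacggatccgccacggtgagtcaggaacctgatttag
Cela1: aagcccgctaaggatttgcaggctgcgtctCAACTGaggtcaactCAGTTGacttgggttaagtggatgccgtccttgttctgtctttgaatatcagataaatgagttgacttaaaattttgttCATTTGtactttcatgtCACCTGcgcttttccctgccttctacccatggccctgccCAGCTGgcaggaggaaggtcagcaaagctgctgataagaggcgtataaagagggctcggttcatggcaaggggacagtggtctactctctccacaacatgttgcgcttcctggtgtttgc
Try4: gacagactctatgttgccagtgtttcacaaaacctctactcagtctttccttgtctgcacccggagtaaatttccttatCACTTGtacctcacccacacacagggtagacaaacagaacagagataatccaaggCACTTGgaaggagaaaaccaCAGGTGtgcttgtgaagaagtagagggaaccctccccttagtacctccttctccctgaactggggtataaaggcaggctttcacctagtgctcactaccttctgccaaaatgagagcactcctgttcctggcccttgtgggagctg
Pnliprp1: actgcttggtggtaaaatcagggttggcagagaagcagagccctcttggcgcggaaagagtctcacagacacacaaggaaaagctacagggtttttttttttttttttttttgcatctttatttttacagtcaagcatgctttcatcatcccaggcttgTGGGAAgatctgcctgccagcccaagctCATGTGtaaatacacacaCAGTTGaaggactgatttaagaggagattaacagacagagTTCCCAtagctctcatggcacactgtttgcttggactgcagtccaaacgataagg
Prss1: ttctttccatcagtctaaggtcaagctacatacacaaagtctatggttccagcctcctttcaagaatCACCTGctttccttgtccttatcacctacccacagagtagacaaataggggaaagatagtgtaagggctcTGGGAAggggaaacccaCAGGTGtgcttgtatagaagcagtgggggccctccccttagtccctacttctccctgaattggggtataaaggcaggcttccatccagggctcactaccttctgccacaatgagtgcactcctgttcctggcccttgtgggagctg
Ctrb1: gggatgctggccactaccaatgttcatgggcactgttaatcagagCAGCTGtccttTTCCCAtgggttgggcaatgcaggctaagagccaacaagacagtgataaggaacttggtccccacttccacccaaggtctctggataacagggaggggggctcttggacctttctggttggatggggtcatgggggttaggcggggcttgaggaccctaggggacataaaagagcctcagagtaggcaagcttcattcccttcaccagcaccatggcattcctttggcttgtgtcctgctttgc
Promoters were found for 10 of the 12 genes looked up (the 11 and Prss1). On either strand, CANNTG was present in 9 of the 10 and TGGGAA in 7, and 6 held both, with no overlap between the matches. Over all 32851 mouse promoters of this length, 72.3% held CANNTG, 25.6% held TGGGAA and 19.0% held both. Both letter groups occurred in genes higher at D0 and in genes higher at D24, for example TGGGAA in Prss1, Pnliprp1 and Pnlip. These matches describe letters in a window of 300 bases and say nothing of binding.

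Members made up 1.10% of the cells at D0 (95% exact binomial interval 0.824 to 1.45) and 0.999% at D24 (0.627 to 1.51). None was found among 2562 cells at D10, 5438 at D56 or 2874 at D300. The upper limits of the same interval are 0.144%, 0.0678% and 0.128%. The highest enzyme share of any cell at these 3 ages was 0.297%. Just inside the threshold at D0 stood cells with 16.7% and 32.8% of their UMIs in the 11 genes, and just outside it cells with 7.51% and 4.47%. At D24 the nearest cells inside had 50.3% and 50.6%, and the nearest outside 5.78% and 1.92%. These shares are what the rule used and are given as a description. Raising the threshold to 50% left 46 and 22 cells, and lowering it to 1% gave 62 and 27.

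**Figure D1:**
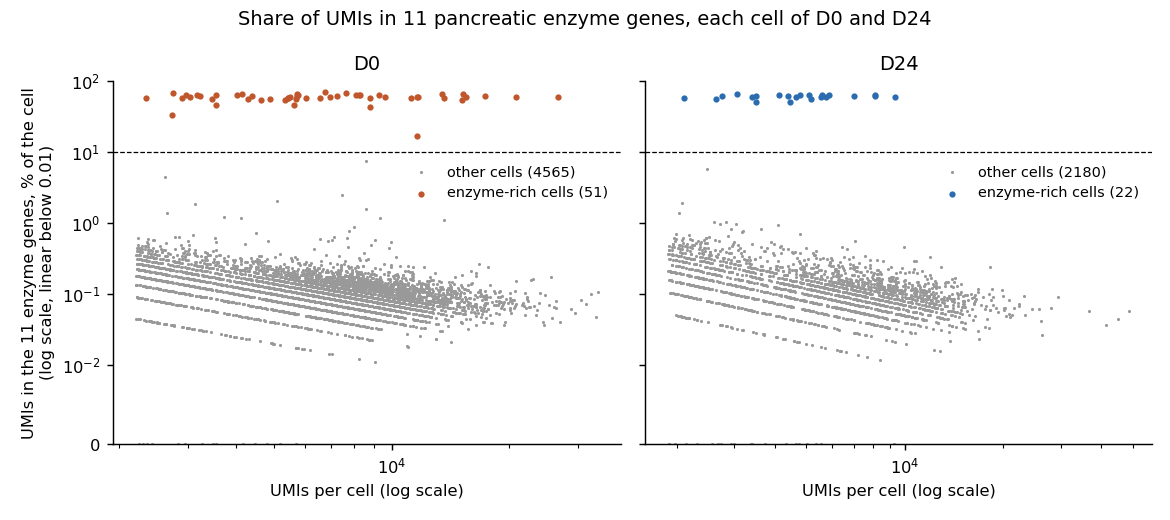
Share of each cell's UMIs in the 11 enzyme genes (vertical axis, percent on a log scale that is linear below 0.01) against its total UMIs (horizontal axis, log scale) at D0 and D24. The dashed line is the 10% threshold: 51 and 22 enzyme-rich cells lie above it, and the 4565 and 2180 other cells form a band around 0.1%.

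Total UMIs of the members ran from 2352 to 26666 at D0 (median 5761) and from 2114 to 9313 at D24 (median 4711), against medians of 6963 and 5983.5 in the other cells. The members together held 395998 UMIs at D0 and 108855 at D24. They expressed few genes: the median was 710 genes per cell at D0 and 564 at D24, against 2504 and 2204 in the other cells. Thinned to 2000 UMIs each, members had medians of 325 and 302 genes. Because the study kept cells with 1000 to 4600 genes and at most 4.5% mitochondrial UMIs, only 14 of the 51 members at D0 and none of the 22 at D24 lay within its limits. Mitochondrial transcripts took a median of 0.181% and 0.103% of members' UMIs, against 2.70% and 2.30% in the other cells.

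The acinar label was checked with genes that the rule did not use. Carboxypeptidase B (Cpb1), syncollin (Sycn, a zymogen granule protein), ribonuclease 1 (Rnase1), the lipase Cel and the trypsin inhibitor Spink1 were each detected in all 51 and all 22 members. Pnliprp2, Ctrl, Zg16 and Reg1 were too. Not every member held Ctrc (46 at D0 and 22 at D24), Gp2 (38 and 22) or the amylase Amy2a5 (3 and 6). The transcription factors Rbpjl, Bhlha15 and Ptf1a were found in 20, 8 and 5 members at D0 and in 6, 5 and 0 at D24. Over 4 lists of acinar genes outside the rule, 36 genes summed to 17.6% of members' UMIs at D0 and 21.8% at D24. These are 176435 and 218327 CPM, against 393 and 526 CPM in the other cells. Of the 12 islet genes 8 were at 0 at both ages, the hormones Ins1, Ins2 and Sst among them. Of the other 4, Ppy had 14 UMIs in 10 members at D0, Pyy 3 and Gcg 1, all with none at D24, and Ttr had 14 UMIs at D0 and 2 at D24. The islet genes summed to 80.8 CPM at D0 and 18.4 CPM at D24 in members, against 243 and 1.24 CPM in the other cells. Of the 9 blood genes 7 were at 0 at both ages, Ptprc (CD45) among them. Of the 12 duct genes 5 were at 0 in both, Krt7 among them, and the duct keratin Krt19 had 12 UMIs at D0 and 0 at D24. The duct genes summed to 354 CPM at D0 and 193 CPM at D24 in members, against 174 and 352 CPM in the other cells, and most of the members' sum came from Krt8 and Krt18, keratins of simple epithelia in general, with 25 and 66 UMIs at D0 and 8 and 11 at D24. Cd24a, the gene of the CD24 antigen that the sort removed, had 22 UMIs in 18 members at D0 and 8 UMIs in 6 members at D24, a level of 55.6 and 73.5 counts per 1000000 UMIs (CPM) against 63.9 and 147 CPM in the other cells. The members are therefore called enzyme-rich or acinar-like cells here.

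Stromal and endothelial RNA was low in the members. The 13 stromal genes summed to 3194 CPM at D0 and 1709 CPM at D24, 6.99% and 4.82% of their level in the other cells, with cells ranging from 993 to 32876 CPM at D0 and from 644 to 4560 CPM at D24. The 10 endothelial genes summed to 139 and 762 CPM, 6.50% and 6.23% of their level in the other cells, and the lymphatic chemokine Ccl21a gave most of the D24 value. The 6 liver genes summed to 35.4 and 18.4 CPM, all of it Ttr, against 14.2 and 71.8 CPM in the other cells. The 8 intestinal genes summed to 17.7 and 0 CPM, all of it the general epithelial gene Epcam (7 UMIs at D0), against 4.85 and 4.95 CPM in the other cells. The 5 mesothelial genes summed to 40.4 and 0 CPM, against 239 and 406 CPM in the other cells. The D0 member nearest the threshold had 2968 genes and 3.29% stromal UMIs, and the next had 1.83% stromal and 4.80% mitochondrial UMIs. Whether these held more than 1 cell was not tested.

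Within the 11 genes, the enzyme makeup differed between the ages. Each gene is given as its share of a cell's 11-gene UMIs, so a larger share of one gene lowers the others. In 3′ counting each captured molecule counts once whatever its length, so no length correction was made, but capture can differ between transcripts, and shares of different genes are shares of captured UMIs. Summed over genes, 26.2% of the enzyme UMIs would have to change gene to turn the D0 makeup into that of D24. Cells of 1 age differed among themselves too: a median of 11.2 percentage points at D0 and 11.8 at D24 separated a member from the pool of its own age. The pool of the other age was 29.8 and 27.7 points away in the median. All 51 cells at D0 and 21 of 22 at D24 were nearer to their own pool, which includes the cell itself.

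Ctrb1 was the most abundant of the 11 at both ages. It took 44.6% of the enzyme UMIs at D0 (95% interval 44.4 to 44.8) and 31.2% at D24 (30.8 to 31.5). Over cells its share ran from 22.8% to 55.1% at D0 (median 45.2%) and from 20.5% to 44.0% at D24 (median 30.8%). The ranges overlapped, and the pooled share was 1.43-fold higher at D0.

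Of the 11 genes Pnlip differed by the largest fold, while in percentage points Ctrb1 (-13.4, D24 minus D0) and Try4 (12.4) differed more than Pnlip (4.26). Pnlip, which encodes pancreatic triglyceride lipase, had 28 UMIs in 15 of the 51 members at D0 and 2811 UMIs at D24, where every member held it. Its share ran from 0% to 0.159% at D0, with a median of 0%, and from 1.85% to 10.9% at D24, with a median of 3.66%. The ages did not overlap in any cell, and the pooled share was 353-fold higher at D24 (counting interval 244 to 533). Pnliprp1, a lipase relative with little known lipase activity, went the other way. It took 8.34% at D0 (cells 2.70% to 17.8%, median 7.14%) and 2.66% at D24 (1.25% to 6.47%, median 2.44%), a share 3.14-fold higher at D0 (2.99 to 3.30) with overlapping cells. Colipase (Clps) took 16.2% at D0 and 15.8% at D24. Its cells were widely spread at both ages, from 2.73% to 46.6% (median 16.8%) and from 2.93% to 29.4% (median 15.8%). Pnlip, Pnliprp1 and Clps together took 24.6% at D0 and 22.7% at D24.

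The elastases, which cut elastic fibres and other proteins, differed gene by gene. Cela1 took 0.358% of the enzyme UMIs at D0 and 6.15% at D24. Its cells lay between 0% and 1.13% at D0 (median 0.326%) and between 4.05% and 8.26% at D24 (median 6.04%). No cell of D24 reached down to D0, and the pooled share was 17.2-fold higher at D24 (15.9 to 18.5). Cela2a was 2.05-fold higher at D24 (1.97 to 2.14), at 2.58% against 5.29%, and its cells overlapped. Cela3b stood at 7.09% and 5.46%, 1.30-fold higher at D0 (1.25 to 1.35). Together the 3 elastases took 10.0% at D0 and 16.9% at D24. The carboxypeptidase gene Cpa1 took 2.35% and 3.39%.

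Among the 3 trypsinogens of the rule, Try4 and Try5 stood in opposite order at the ages. Try5 took 9.27% at D0 and 4.90% at D24 (cells 2.48% to 16.6% and 2.16% to 10.7%). Try4 took 2.14% at D0 (cells 0.108% to 7.57%, median 1.51%) and 14.5% at D24 (7.62% to 26.4%, median 13.1%). The lowest D24 cell lay just above the highest D0 cell, and the pooled Try4 share was 6.79-fold higher at D24 (6.56 to 7.03). In CPM the ages overlapped, with the highest D0 cell at 47828 and the lowest D24 cell at 44465. Prss2 stood at 7.05% and 6.40%. Try4 and Try5 share 33.8% of the 75-base windows in the last 500 bases of their transcripts, so part of their reads cannot be placed with certainty. Their sum was 6.67% of all members' UMIs at D0 and 11.7% at D24. Try4 shares 35.7% of its windows with any relative, and how far ambiguous reads affect the sum was not tested.

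**Figure D2:**
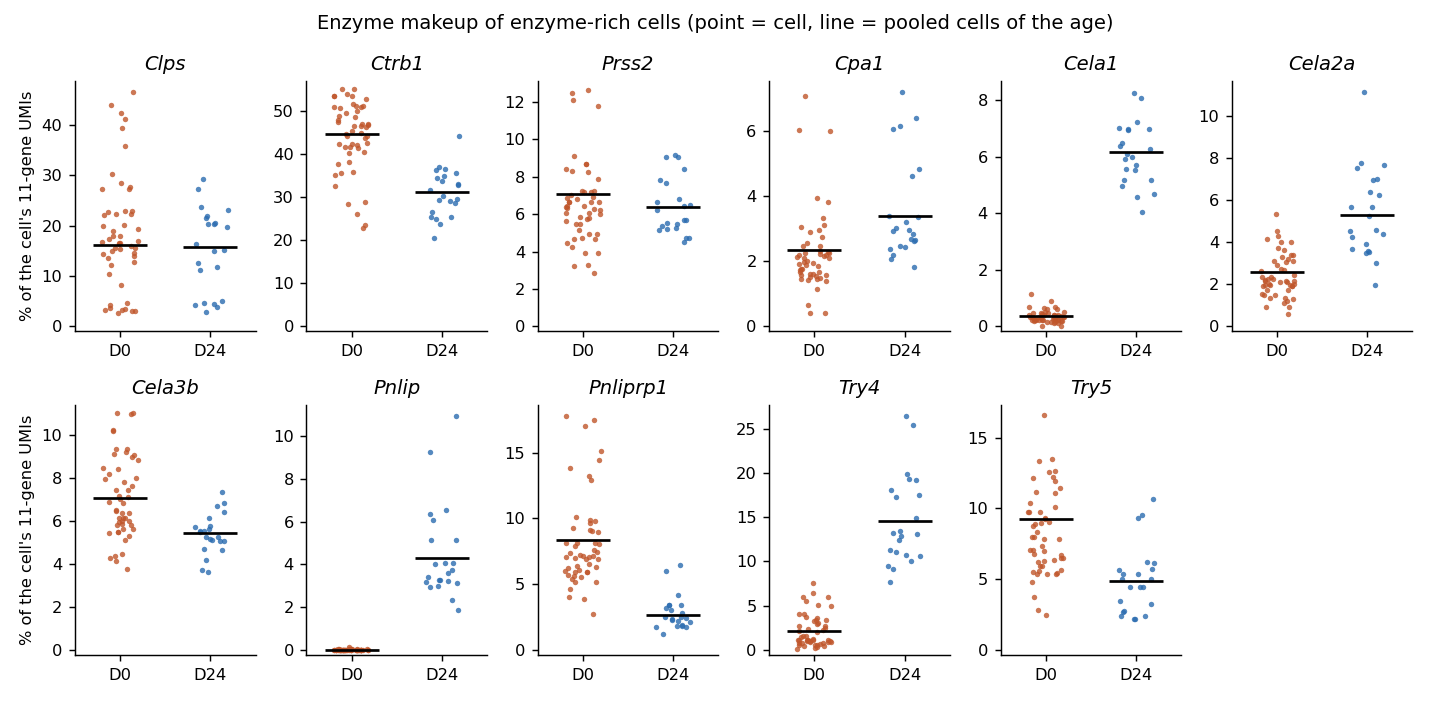
Share of each enzyme-rich cell's 11-gene UMIs taken by each of the 11 genes (vertical axes, percent, a scale per gene) at D0 (51 cells) and D24 (22 cells). Points are cells and black lines the pooled share. As shares, Pnlip, Cela1 and Try4 separate the ages in every cell, Try4 narrowly and not in CPM. Clps spans 2.73% to 46.6% at D0.

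Spread between cells of 1 age was wider than counting alone gives for every one of the 11 genes. The coefficient of variation of the Clps share was 60.1% at D0 and 54.3% at D24, where counting alone would give 3.54% and 4.73%. Ctrb1 varied least at D0, with 18.5%, and Cela3b least at D24, with 17.3%. Try4 varied by 82.7% at D0 and by 34.8% at D24, and Cela1 by 59.3% at D0, with 30.4% from counting, and by 18.1% at D24.

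Outside the rule, 793 genes reached 50 CPM in the pooled members of either age. A gene was called when the pooled CPM differed at least 2-fold and the exact 95% counting interval of the ratio excluded no difference. By this rule 80 genes were higher at D24 (10.1% of those tested) and 96 were lower (12.1%), and the median log2 ratio of D24 over D0 was -0.27. With edgeR's trimmed mean of M-values (TMM) scaling, which moved the median of the same genes by -0.29, the calls among these 793 genes were 49 higher and 186 lower. Scaled to the UMIs outside the 11 genes, they were 94 higher and 86 lower. At the 50% threshold, which leaves out 5 of the D0 cells, 98 of 733 tested genes were higher and 61 lower. Of the 80 higher genes 48, and of the 96 lower genes 15, stood above the other cells of the same library at the age where they were higher. The remaining 32 and 81 stood below them, and 28 and 70 of these had the same direction in the other cells. The matching shares over all 793 tested genes are not given here, so these counts are a description only.

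Of the 4 acinar lists outside the rule, 30 of 36 genes were tested: 15 were higher at D24, 6 lower and 9 neither, with a median log2 ratio of 0.97 against -0.27 over all tested genes. The lists were chosen with earlier results of these data known. With TMM scaling 13 were higher and 7 lower.

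All 6 lower genes were trypsinogens. Prss1 had 18705 CPM at D0 and 322 CPM at D24 (7407 and 35 UMIs). Its cells ran from 2126 to 50318 CPM at D0 (median 14769) and from 0 to 1803 CPM at D24 (median 0). Every D0 cell lay above every D24 cell, and only 10 of the 22 D24 cells held a UMI. The log2 ratio was -5.86 (-6.39 to -5.39), a level 58.2-fold higher at D0. In the other cells Prss1 stood at 37.2 and 2.89 CPM, a smaller log2 ratio of -3.69 (-4.17 to -3.24). At D24 the other cells held 42 Prss1 UMIs, against 35 in the members. Only 1 of the 793 tested genes (0.126%) had all its D0 cells above all its D24 cells, and this was Prss1. Gm5771 stood at 11889 and 1433 CPM, Gm10334 at 8268 and 1461 CPM, Prss3 at 7803 and 2453 CPM and Try10 at 5785 and 1727 CPM. They were 8.30-, 5.66-, 3.18- and 3.35-fold higher at D0. Their log2 ratios were -3.05, -2.50, -1.67 and -1.74 in the members and -2.18, -1.36, -1.19 and -1.57 in the other cells. 1810009J06Rik had 155 UMIs in 22 D0 cells and none at D24, which makes it at least 14.2-fold higher at D0 against 3 counts in the D24 pool. Its relative Gm2663, outside the lists, had 148 UMIs in 35 cells and 1 UMI, a log2 ratio of -5.35 (-10.66 to -2.85). Both were patchy at D0, with 85.8% and 70.3% of their UMIs in 10 cells each.

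One trypsinogen relative went the other way. 2210010C04Rik had 14253 CPM at D0 and 29819 CPM at D24, with cells from 3105 to 24618 CPM (median 15132) and from 23169 to 36754 CPM (median 28936). The overlap was confined to the top of D0 and the bottom of D24, and the log2 ratio was 1.07 (1.002 to 1.13). With TMM scaling its log2 ratio was 0.78. Summed over 11 family members, trypsinogens took 17.5% of members' UMIs at D0 (17.4 to 17.7) and 19.3% at D24 (19.1 to 19.6). Over cells this sum ran from 3.02% to 28.9% at D0 (median 15.4%) and from 13.8% to 26.8% at D24 (median 18.9%). Prss2 differed by less than the total did (log2 CPM ratio -0.09), whereas Try4 and the 6 lower genes differed by more. At D0 the family's largest parts were Try5 with 30.9%, Prss2 with 23.5% and Prss1 with 10.7%. At D24 they were Try4 with 45.4%, then Prss2 and 2210010C04Rik, the last with 15.4%, and Prss1 had 0.166%. Near-identical 3′ ends make single values uncertain, since Prss3 shares 62.0% of its end windows with Gm10334, Gm5771 31.0% with Gm10334, Prss1 30.5% with Gm5771 and 1810009J06Rik 81.2% with Gm2663. Without the Clps-poor cells described below, Prss1 stood at a log2 ratio of -7.81, Gm5771 at -4.25, Gm10334 at -3.61 and Prss3 at -2.77. The sum of Prss1, Prss3, Gm5771, Gm10334 and Try10 was 5.24% at D0 and 0.740% at D24.

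The other proteases were higher at D24 or not called. Ctrc, a chymotrypsinogen known for activating and degrading other zymogens, had 1313 CPM at D0 and 8249.5 CPM at D24. Its cells ran from 0 to 4924 CPM (median 987) and from 3311 to 14198 CPM (median 8278), a log2 ratio of 2.65 (2.49 to 2.81). In the annotation Ctrc overlaps Cela2a on the same strand. Ctrl, a chymotrypsin-like protease, stood at 8469.7 and 25520.2 CPM, a log2 ratio of 1.59 (1.52 to 1.66). Its cells overlapped, from 366 to 37087 CPM and from 11684 to 45772 CPM. The kallikrein Klk1 had a log2 ratio of 1.05 (0.87 to 1.23), which was 0.77 with TMM scaling. The carboxypeptidase Cpb1 had a log2 ratio of 0.44 (0.37 to 0.51) and was not called.

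Among the fat-digesting enzymes outside the rule, Pla2g1b, the pancreatic phospholipase that digests phospholipids, had 333 CPM at D0 and 6945 CPM at D24. Cells ran from 0 to 1213 CPM (median 322) and from 1892 to 9879 CPM (median 6747). The ages did not overlap, and the level was 20.8-fold higher at D24, a log2 ratio of 4.38 (4.11 to 4.66). Only 2 of the 793 tested genes (0.252%) had all D24 cells above all D0 cells, Pla2g1b and the granule lectin Zg16. The milk-fat lipases were not called: Cel stood at 10131 and 9885 CPM and Pnliprp2 at 2106 and 3298 CPM, with log2 ratios of -0.04 (-0.13 to 0.06) and 0.65 (0.46 to 0.83). Cel spanned 1294 to 54797 CPM at D0 (median 5882) and 1176 to 44903 CPM at D24 (median 5060). The ribonuclease Rnase1 stood at 16674 and 19457 CPM. The pancreatic amylase Amy2a5 had only 3 UMIs at D0 and 8 at D24, in 3 and 6 cells, a log2 ratio of 3.28 (1.22 to 5.83) that counts among the 15 higher acinar genes. Every 75-base window in the last 500 bases of the annotated Amy2a1 to Amy2a4 transcripts also occurs in another copy, so reads of these 4 cannot be placed with certainty, whereas the Amy2a5 end shares none.

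**Figure D3:**
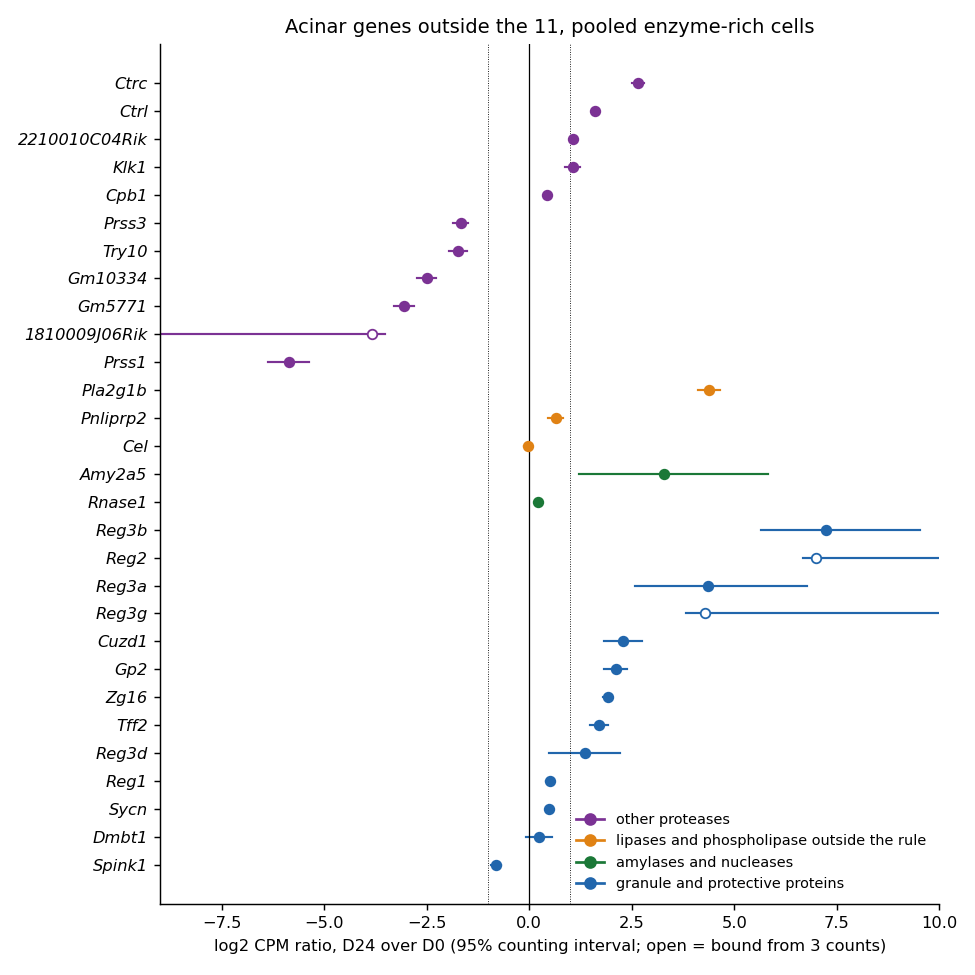
Pooled log2 CPM ratio of D24 over D0 in enzyme-rich cells (horizontal axis) for tested acinar genes outside the rule, by list; bars are 95% counting intervals, cut at the plot's edges, open points are bounds from 3 counts where 1 age had none, and dotted lines mark 2-fold. The 6 genes left of the lower line are trypsinogens, with Prss1 at -5.86, and Reg3b lies farthest right, at 7.24 (6.19 without the deepest cell of each age).

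Of the 13 granule and protective proteins, 9 were higher at D24, none lower and 4 neither, against 10.1% higher and 12.1% lower over all tested genes. Of the 9, 5 were Reg genes. Zg16, a lectin of the granule membrane, had 3818 CPM at D0 and 14331 CPM at D24, with cells from 431 to 8757 CPM (median 3677) and from 8922 to 19868 CPM (median 15474). All D24 cells lay above all D0 cells. The granule glycoprotein Gp2 had a log2 ratio of 2.10 (1.82 to 2.39), Cuzd1, another granule membrane protein, one of 2.28 (1.81 to 2.75), and the trefoil peptide Tff2 one of 1.69 (1.48 to 1.91). Syncollin, the secreted lectin Reg1 and Dmbt1 had ratios of 0.48, 0.50 and 0.24. The inhibitor Spink1, which guards against trypsin activated too early, stood at 9739.9 and 5558 CPM, a log2 ratio of -0.81 (-0.94 to -0.69) that was not called. With TMM scaling it was -1.10.

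Other Reg genes encode secreted lectins known to be raised by injury or inflammation of the pancreas, and Reg2, Reg3a, Reg3b and Reg3g were found mostly in part of the D24 cells. Reg2 had no UMI in the 51 D0 cells, which allows up to 7.58 CPM, and 105 UMIs at D24, at least 127-fold more against 3 counts in the D0 pool. These 105 UMIs lay in 8 of the 22 cells (36.4%, exact binomial interval 17.2 to 59.3), which held from 3 to 33 UMIs each. Reg3b had 3 UMIs at D0 and 125 at D24, of which 119 lay in the same 8 cells and 6 in the other 14. The deepest D24 cell alone held 66 of the 125, and without the deepest cell of each age the log2 ratio of Reg3b was 6.19 instead of 7.24. All 17 UMIs of Reg3a and all 16 of Reg3g at D24 lay in these 8 cells too. Reg3d was spread over both ages, with 30 UMIs in 19 cells at D0 and 21 UMIs in 11 cells at D24, 15 of them in the 8 cells, and its log2 ratio was 1.35 (0.47 to 2.20). Reg1, present in every cell, stood at 21059 CPM in the 8 cells and at 11042 CPM in the other 14, with ranges of 9899 to 29742 and 6076 to 19446 CPM that overlapped. The 8 cells were chosen by Reg2, so its own values are a description. Their median depth was 4520 UMIs against 4935 in the rest, they held 37.6% of the D24 members' UMIs, with the deepest cell among them, and 2 of them were among the 6 Clps-poor cells described below.

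Of the 14 tested genes of the secretory machinery, 2 were higher at D24 and none lower, against 10.1% higher and 12.1% lower over all tested genes, with a median log2 ratio of 0.38. A count this small is near that background. Aqp12, an acinar water channel, had a ratio of 1.002 (0.39 to 1.59) and Hspa5, a chaperone of the endoplasmic reticulum, one of 1.09 (0.60 to 1.56), and with TMM scaling neither reached 2-fold. Hspa5 stood at 255 and 542 CPM in the members and at 1057 and 1775 CPM in the other cells. The pancreatic disulfide isomerase Pdia2 stood at 884 and 1350 CPM. Acinar transcription factors were sparse at this depth. Rbpjl, the acinar subunit of the PTF1 complex, had 27 UMIs at D0 and 7 at D24, Bhlha15 (Mist1), which acts in granule formation, had 8 and 7, and Xbp1, a regulator of secretory capacity, had 50 and 9. None of these 3 was called, and Ptf1a, with 6 and 0 UMIs, was too low to be tested. Among 13 tested stress and unfolded protein response genes 1 was higher (Creld2) and 1 lower (Egr1), which is also near the background. The 8 cycling genes summed to 139 CPM at D0 and 55.1 CPM at D24, against 1643 and 740 CPM in the other cells.

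Several of the genes with the widest differences were as strong or stronger outside the members. Dlk1, H19, Meg3, Itm2a and Ptn, genes of newborn mesenchyme and other young tissues, were lower at D24 in the members, and each stood below the other cells at D0. Dlk1 had 523 and 18.4 CPM in members and 4578 and 57.7 CPM in the other cells. The D0 member nearest the threshold, which has 3.29% stromal UMIs and 2.93% of the D0 members' UMIs, held 83 of the 207 Dlk1, 139 of the 334 Itm2a, 40 of the 81 Meg3, 29 of the 79 H19 and 45 of the 115 Ptn UMIs at D0. Without it, as at the 20% threshold, the log2 ratios went from -4.83 to -4.13 for Dlk1, from -3.71 to -2.98 for Itm2a and from -4.98 to -4.31 for Ptn. Meg3 and H19 had no UMI at D24, and their bounds against 3 counts went from -2.89 to -1.95 and from -2.86 to -2.24. At the 5% threshold, which adds 1 cell at each age, Meg3 stood at -1.07 and Itm2a at -2.58, while Dlk1 stood at -4.90, Ptn at -5.13 and H19 at -5.10. The endothelial and stromal genes Glycam1, Ccl21a and Apoe were higher at D24 in the members, with 349, 707 and 882 CPM there, and stood at 2156, 10619.8 and 9388 CPM in the other cells of D24. The part of free RNA in these values was not tested. The metallothionein Mt2, a zinc-binding protein, differed in direction: it had 528 CPM at D0 and 27.6 CPM at D24 in the members (209 and 3 UMIs) but 67.1 and 510 CPM in the other cells.

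The enzyme RNA in the other cells of each library was closer in makeup to that library's members than to the members of the other age. The other cells held 1161 CPM of the 11 genes at D0 and 1166 CPM at D24, and the members held 85.5% and 79.5% of each library's 11-gene UMIs. The same sum was 10.7 CPM at D10, 0.986 CPM at D56 and 0.0855 CPM at D300. Members and other cells were 6.06 percentage points apart at D0 and 11.4 at D24, whereas D0 members and D24 other cells were 33.3 points apart and D24 members and D0 other cells 24.4. In the other cells Cela1 took 0.587% of the enzyme UMIs at D0 and 6.57% at D24, Pnlip 0.0536% and 3.90%, Pnliprp1 8.30% and 2.57%, and Try4 2.55% and 19.0%. Ctrb1 took less there than in members at both ages, 38.5% and 24.3%, and Prss2 more, 8.31% and 8.97%. At D24 the shares in Pecam1-positive endothelial cells (478 cells) and in Col1a2-positive stromal cells (1269 cells) were close, with 19.1% and 19.4% for Try4 and 4.14% and 3.71% for Pnlip. Their 11-gene sums were 1276 and 1145 CPM.

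**Figure D4:**
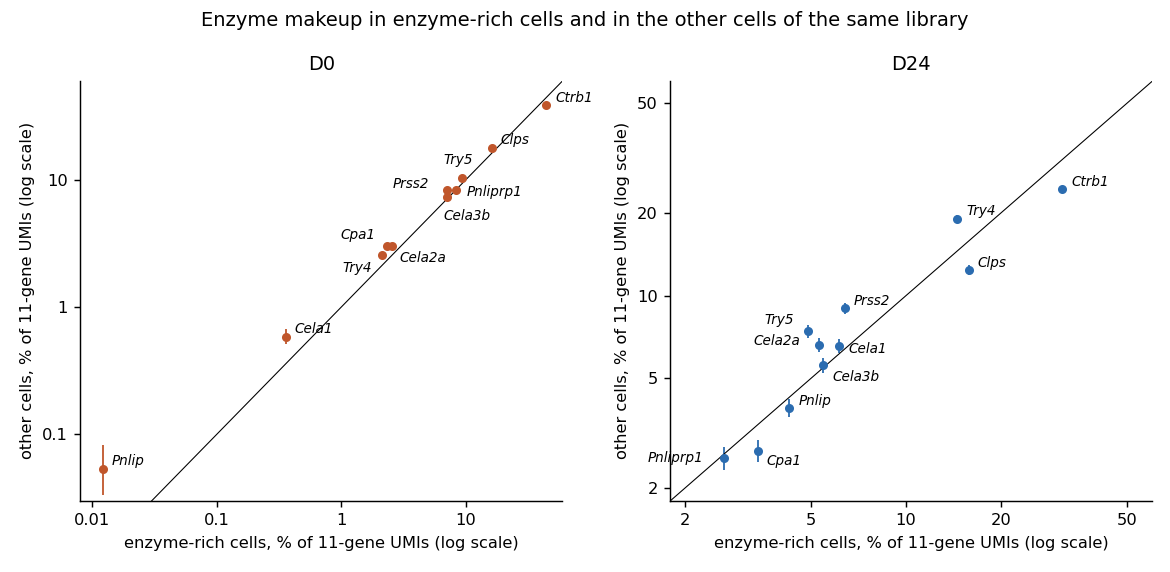
Share of the 11-gene UMIs taken by each enzyme gene in the other cells (vertical axis, percent, log scale) against the share in enzyme-rich cells (horizontal axis, percent, log scale) at D0 and D24; bars are 95% counting intervals of the other cells and the line marks equal shares. Points follow the line at both ages, with Pnlip at D0 (0.0121% in enzyme-rich and 0.0536% in other cells) farthest from it.

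Clps set off a smaller group of members at both ages. In 9 of the 51 cells at D0 Clps took 2.73% to 4.56% of the 11-gene UMIs, and the next cell stood at 8.23%. In 6 of the 22 cells at D24 it took 2.93% to 5.12%, and the next stood at 11.1%. The limit of 6% between them was set after these values were seen, so the groups are compared without a test. They were alike in depth, with median UMIs of 6952 and 5744 at D0 and 4418 and 4935 at D24 in the Clps-poor and other members, and in stromal UMIs, with medians of 0.203% and 0.227% at D0 and 0.195% and 0.132% at D24.

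Of 221 genes that reached 300 CPM, 7 were at least 2-fold higher in the Clps-poor cells at both ages (3.17%) and 29 at least 2-fold lower at both (13.1%). Cel stood at 27621 CPM in the Clps-poor and 6386 CPM in the other members at D0, and at 26639 and 4713 CPM at D24. Its cells nearly separated at D0 and did so wholly at D24. Ctrl, Pnliprp2, Cuzd1, Pdia2 and the mitochondrial transcript mt-Cytb were also among the higher genes. Ctrl had 17526 against 6531 CPM at D0 and 42450 against 20294 CPM at D24. Of the 29 lower genes 22 encode ribosomal proteins, as do 78 of the 221 tested genes, and the others included Atp5e, Atp5l and Uqcrq, small subunits of mitochondrial ATP synthase and complex III, and Tff2. Rps24 stood at 430 against 2195 CPM at D0 and at 195 against 1298 CPM at D24. Ribosomal-protein genes together took 3.05% to 5.27% of UMIs in the Clps-poor cells at D0 and 5.76% to 18.1% in the other members. At D24 they took 2.31% to 4.45% and 4.67% to 7.24%. Neither age had an overlap. The lower genes had short transcripts, with a median annotated length of 652.5 bases (28 of 29 with a length), against 1572 bases for the 7 higher genes and 968 bases for the 213 tested genes with a length, and the Clps transcript has 611 bases. The part of transcript length or capture in this pattern was not tested.

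**Figure D5:**
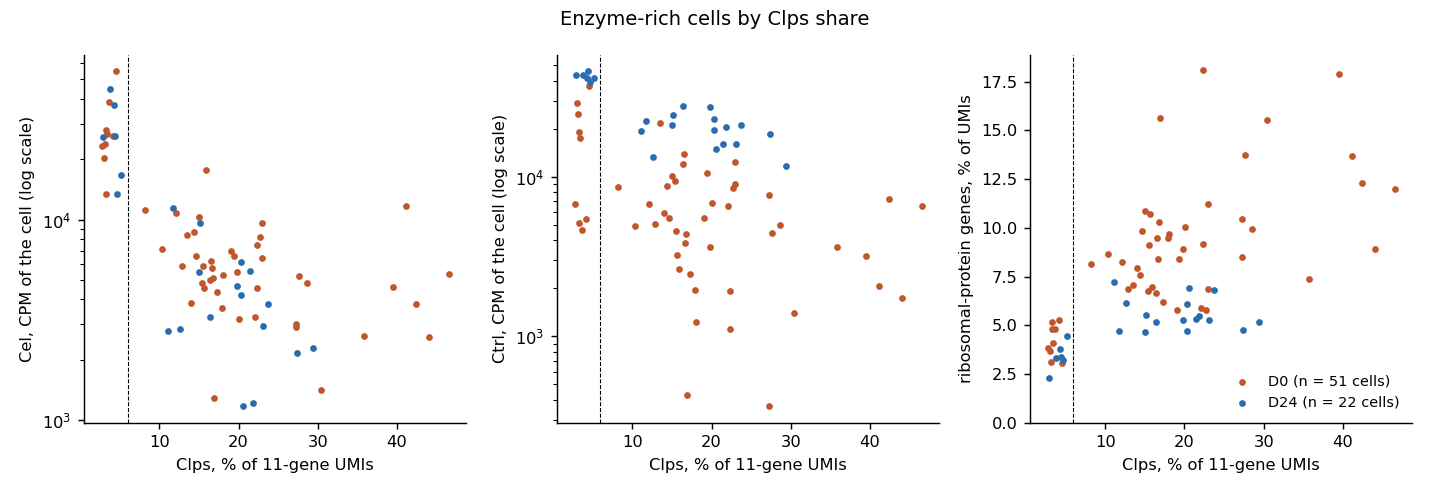
Cel CPM, Ctrl CPM (both log scale) and the percent of UMIs in ribosomal-protein genes (vertical axes) against the Clps share of the 11-gene UMIs (horizontal axes, percent) in the enzyme-rich cells of D0 (51) and D24 (22). The dashed line at 6% separates the 9 and 6 Clps-poor cells, whose ribosomal-protein share lies below that of the other members of the same age.

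The makeup of the Clps-poor cells still differed by age. Pnlip took 0.0122% of their 11-gene UMIs at D0 and 6.95% at D24, Cela1 0.603% and 6.26%, and Try4 2.38% and 22.0%. Pnliprp1 took 13.9% and 4.05%. Without the Clps-poor cells, 22.8% of the enzyme UMIs would have to change gene between the ages.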

How the data were processed

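Single-cell libraries of CD45-CD24- mLN cells were made with the 10x 3′ v2 kit. The authors deposited 1 table of UMI counts per gene and cell for all 5 ages (27998 genes), with no normalisation; the submitters' processing notes name Cell Ranger 2.0.0, STAR, Seurat 2.3.3 and mm10. Every column belonged to a labelled sample or group, and cell names hold no barcodes, so barcodes shared between libraries could not be counted. No cell was filtered and no doublet removed; an alternative dropped the top 5% of members by UMIs. Counts of members were summed per age and given as CPM or as shares of the 11-gene UMIs, with exact binomial intervals (scipy 1.17.1, 95%); a count of 0 was set to 3 counts for bounds. Scripts were tested on simulated data. Members, gene lists and comparisons were chosen with earlier results of these data known. Named genes were the 11, the list genes, and the 10 higher and 10 lower genes outside the 11 (at least 50 CPM and 30 UMIs) ranked by the counting bound nearest 0. edgeR 4.0.16 gave TMM factors only. Gene positions, transcript lengths and shared 75-base windows came from GENCODE vM21, promoters from RefSeq (GRCm38.p6). Precision follows from the pooled depth of 395998 and 108855 UMIs and does not cover spread between animals. 1 item among the tested genes is counted but not reported by name here.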

Additional observations from a re-analysis of the deposited data

How the results depend on the processing

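No paired analysis was possible because D0 and D24 have 1 library each. Only D56 and D300 have more than 1 replicate, the columns carry no replicate number, and no test was made. The number of members stayed within its interval at thresholds of 5%, 20% and 50% and without stromal-rich cells; the study's limits on genes and mitochondrial share left 14 cells at D0 and 0 at D24, so no makeup could be computed under them. No member had under 1000 UMIs. The makeup difference of 26.2 points was 27.7 without the top 5% of cells by UMIs, 26.8 without the deepest cell of each age, 26.8 as a mean over cells, and, in alternatives chosen after seeing the data, 22.8 without Clps-poor cells and 20.6 without the trypsinogens. Against other cells the D0 distance of 6.06 points was 6.45 with other cells under 1% enzyme UMIs and 6.57 as a mean over cells, and the D24 distance of 11.4 was 10.7 as a mean over cells. Of genes past 2-fold, the 96 lower became 61 at the 50% threshold, TMM scaling, under which 803 genes reached 50 CPM, gave 44 higher and 194 lower (49 and 186 of the 793 genes), and genes above the other cells alone (chosen after seeing the data) gave 48 and 15. Of the rule, named and list genes past 2-fold, Col3a1, a stromal collagen, alone turned direction (log2 -1.21, and 0.075 at the 5% threshold); among those not past 2-fold 14 did in at least 1 alternative, Clps, Cel, Rnase1 and Dmbt1 among them. Depth limits the transcription factors and other genes under about 50 CPM.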

Other observations

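Pancreatic hormone RNA was also present in the D0 library, outside the enzyme-rich cells. Ppy, the pancreatic polypeptide gene, had 4326 UMIs in 526 of the 4565 other cells at D0, a level of 128 CPM, and Pyy, the peptide YY gene, had 3544 UMIs in 287 cells. For each of these genes 2 cells held more than 100 UMIs, and these held 3738 of the Ppy and 3240 of the Pyy UMIs. The 51 enzyme-rich cells had 14 UMIs of Ppy and 3 of Pyy. At D24 the 2180 other cells had 4 UMIs of Ppy and 0 of Pyy, and the 22 enzyme-rich cells had none of either. Ins1 and Ins2, the insulin genes, had 37 and 70 UMIs in the other cells at D0 and 0 and 3 at D24. These genes were chosen after their values were seen.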
